A study of Mus musculus with 6 samples.

Results

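The genes that write and copy DNA methylation were followed in mouse ES cells as the culture was moved from serum to 2i+vitC, a medium known to lower DNA methylation. The set holds 5 genes, Dnmt1, Dnmt3a, Dnmt3b, Dnmt3l and Uhrf1. They were taken by name from the 12626 genes of the processed RNA-seq files, and all 5 had a row. Their levels did not enter the choice by name, although the set was drawn up with earlier results of these data known.

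In mammals, methylation of cytosine at CpG sites is copied at each round of replication. Dnmt1 is the maintenance methyltransferase, and Uhrf1 is the cofactor that recognises hemimethylated CpG sites and brings Dnmt1 to them. Dnmt3a and Dnmt3b are the de novo methyltransferases, which place methylation on unmethylated DNA. Dnmt3l belongs to the same family but has no catalytic activity of its own, and acts by binding Dnmt3a and Dnmt3b and stimulating them. ES cells in serum are known to express all of them, and 2i is known to lower the de novo enzymes.

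All samples were WT J1 ES cells, a single mouse line grown on gelatin without feeders and with LIF throughout. D0 was the serum culture. D6 and D13 were days of conversion in serum-free 2i+vitC, which contains the MEK inhibitor PD0325901, the Gsk3 inhibitor CT-99021 and vitamin C. Each of the 3 days had 2 biological replicates, 6 samples in all, and no source used here says how the cultures of a day were separated, so that p-values measure the spread between these samples. The inhibitors, vitamin C, the loss of serum and the time in culture changed together between D0 and D6, and their effects on a gene cannot be told apart. mRNA was measured, not protein or enzyme activity.

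The bases upstream of the start sites are shown first, because the 5 genes differ in the CpG density of their own start sites. The sequences are from RefSeq on GRCm38.p6. Each is 150 bases long, ends just before an annotated start site and is written along the gene's strand, with every CG in capitals. For each gene, the window with the most CpG sites was taken among those whose upstream bases overlapped no annotated exon.
Dnmt1, chr9:20952980-20953129, minus strand: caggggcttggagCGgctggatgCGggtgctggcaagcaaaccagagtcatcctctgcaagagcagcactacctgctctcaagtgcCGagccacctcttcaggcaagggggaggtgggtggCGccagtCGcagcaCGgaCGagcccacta
Uhrf1, chr17:56304163-56304312, plus strand: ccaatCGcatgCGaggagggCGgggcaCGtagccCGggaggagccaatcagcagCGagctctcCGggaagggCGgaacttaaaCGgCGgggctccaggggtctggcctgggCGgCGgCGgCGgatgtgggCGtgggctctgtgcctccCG
Dnmt3a, chr12:3806830-3806979, plus strand: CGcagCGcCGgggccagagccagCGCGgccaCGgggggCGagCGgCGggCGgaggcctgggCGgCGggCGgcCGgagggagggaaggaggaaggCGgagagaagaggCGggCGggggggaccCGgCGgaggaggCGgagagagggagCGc
Dnmt3b, chr2:153649299-153649448, plus strand: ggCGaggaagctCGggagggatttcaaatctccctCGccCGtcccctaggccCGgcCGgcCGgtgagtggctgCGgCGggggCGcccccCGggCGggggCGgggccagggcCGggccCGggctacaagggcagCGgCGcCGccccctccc
Dnmt3l, chr10:78042137-78042286, plus strand: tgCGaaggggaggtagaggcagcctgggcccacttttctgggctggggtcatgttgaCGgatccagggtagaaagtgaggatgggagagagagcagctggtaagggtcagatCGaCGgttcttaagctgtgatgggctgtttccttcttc
These stretches held 21 CpG sites for Dnmt3a, 18 for Dnmt3b, 16 for Uhrf1, 7 for Dnmt1 and 4 for Dnmt3l.

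Over the full 300-base windows, from 250 bases before to 50 after a start site, the median of 32851 mouse windows was 7 CpG sites. The richest window of Dnmt3a held 47, and 1.4% of all windows held at least as many. Its other windows held 46 and 18 (29.7% of windows held at least 18). The richest windows of Dnmt1 and Uhrf1 held 33 each (8.6% of windows held as many), and the window of Dnmt3b held 30 (11.7%). The 3 windows of Dnmt3l held 6, 4 and 3 CpG sites, all under the median. The CpG-rich window of Dnmt1, at the start site on position 20952623 of chromosome 9, is not printed because its upstream bases overlap an annotated exon. By the richest window of each, the 3 genes that fell thus ranged from among the most CpG-dense to below the median. Which start sites were used in these cells was not tested. E2F factors drive S phase genes, and their core words TTCCCGC and TTGGCGC were searched on both strands. TTCCCGC occurred in a window of Uhrf1 and in 4.6% of all windows, and TTGGCGC in a window of Dnmt1 and in 2.454% of all windows. The upstream bases of both windows overlap an annotated exon, and neither window is the printed one. The shares are per window, whereas 2 windows of Uhrf1 and 3 of Dnmt1 were searched. A match is a description of the letters only.

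The values are log2 CPM as deposited, that is, reads scaled to the size of the library on a log2 scale. Between 73230745 and 83688345 reads fell on genes in each sample, and 3 reads corresponded to between 0.034 and 0.042 CPM, and every member was above this level in every sample. Differences between days were tested with limma, with Benjamini-Hochberg adjustment over 12928 genes and transposon families, and a gene was called changed at an adjusted p under 0.05. The share of all features at an unadjusted p under 0.05 was not counted. Counts of genes at that threshold therefore have no background beside them and are descriptions only. The marker genes of ES cells were expressed on all days: the 8 markers summed to 2490 and 3426 CPM at D0, then 4755 and 5107 at D6, and finally 4048 and 4131 at D13. The markers did not all move in 1 direction. Tfcp2l1 was at 6.41 and 7.55 log2 CPM at D0 and at 9.80 and 10.52 at D13. Sox2 was at 8.82 and 9.13 at D0 and at 8.31 and 8.26 at D13. The D0 replicates differed among themselves, with Esrrb, a naive pluripotency factor, at 7.29 log2 CPM in replicate 1 and 8.77 in replicate 2.

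**Figure D1:**
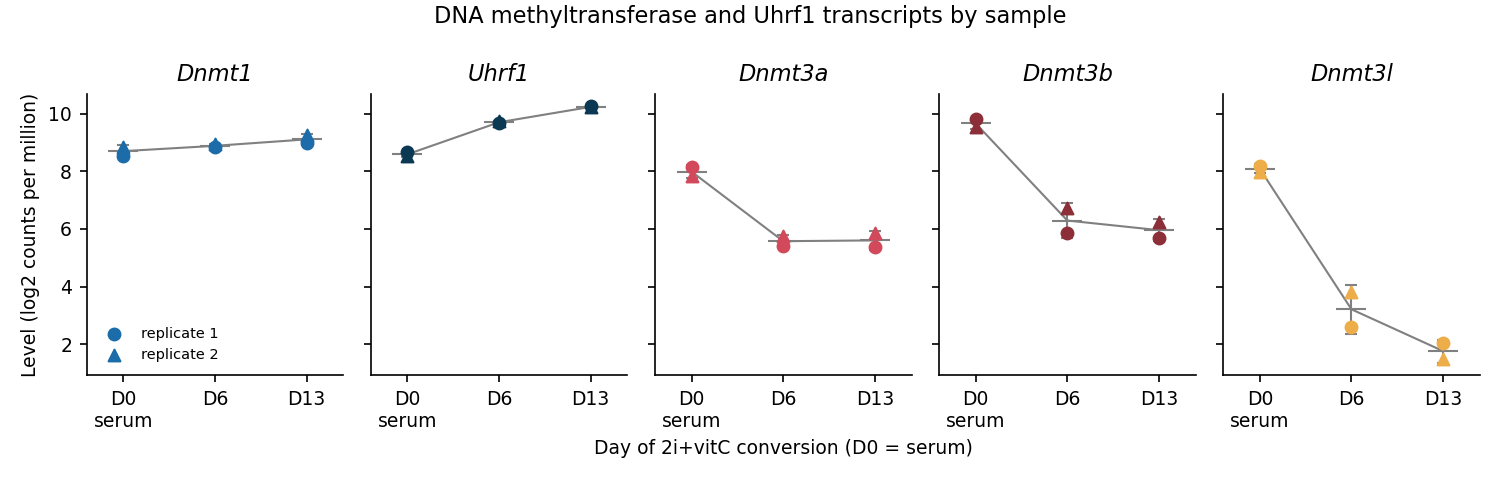
Level of each gene in log2 CPM (y axis) on the serum day D0 and the 2i+vitC days D6 and D13 (x axis). Circles and triangles are replicates 1 and 2, dashes the mean of a day and bars the SD (n = 2). Dnmt3a, Dnmt3b and Dnmt3l lie lower at D6 and D13 than at D0, Uhrf1 lies higher, and the Dnmt1 values of D0 and D6 overlap.

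No change of the maintenance methyltransferase gene Dnmt1 passed the test. Dnmt1 (chr9:20907209-20959888, minus strand, GRCm38) measured 8.54 and 8.86 log2 CPM at D0, then 8.83 and 8.94 at D6, and finally 8.97 and 9.25 at D13. The values of D0 and D6 overlapped, while both D13 values lay above all 4 others. The log2 change was 0.18 from D0 to D6 (limma SE 0.23, 95% confidence interval from -0.33 to 0.70, adjusted p = 0.622). From D0 to D13 it was 0.41 (SE 0.23, interval from -0.11 to 0.93, limma adjusted p = 0.181). The interval to D13 reached from a level 1.08-fold lower to one 1.90-fold higher. These values rest on 29393 to 45689 reads per sample.

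Uhrf1, the cofactor that brings Dnmt1 to replicated DNA, rose. Uhrf1 (chr17:56303321-56323486, plus strand) measured 8.66 and 8.52 log2 CPM at D0, then 9.67 and 9.73 at D6, and finally 10.25 and 10.22 at D13. The 3 days did not overlap, and the replicates of a day lay close together (SD of 0.0997 log2 units at D0, where it was largest). The level was 2.16-fold higher at D6 than at D0 (log2 change 1.11, SE 0.22, limma adjusted p = 0.00598) and 3.13-fold higher at D13 (log2 change 1.65, SE 0.22, limma adjusted p = 0.000537). The D6 call was lost when either D6 sample was left out, with adjusted p = 0.0777 without D6 replicate 1 and 0.0889 without D6 replicate 2. The D13 call was kept with any single sample left out (adjusted p between 0.00106 and 0.00399).

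The de novo methyltransferase genes fell. Dnmt3a (chr12:3806007-3914443, plus strand) measured 8.14 and 7.83 log2 CPM at D0, then 5.41 and 5.74 at D6, and finally 5.36 and 5.84 at D13. Both D0 values lay above all later ones, and the D6 and D13 values overlapped. Its level was 5.32-fold lower at D6 (log2 change -2.41, SE 0.25, limma adjusted p = 0.000258) and 5.22-fold lower at D13 (log2 change -2.39, SE 0.25, limma adjusted p = 0.000178).

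Dnmt3b (chr2:153649450-153687730, plus strand), the other de novo enzyme, measured 9.80 and 9.52 log2 CPM at D0, then 5.87 and 6.71 at D6, and finally 5.68 and 6.23 at D13. Again D0 stood apart, and D6 and D13 overlapped. Its level was 10.3-fold lower at D6 (log2 change -3.37, SE 0.31, limma adjusted p = 0.000158) and 13.03-fold lower at D13 (log2 change -3.70, SE 0.31, limma adjusted p = 6.85e-05). In reads, Dnmt3b went from 70216 and 64235 at D0 to 3675 and 5641 at D13.

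The largest fall among the 5 genes was that of Dnmt3l, the cofactor of the de novo enzymes. Dnmt3l (chr10:78041947-78063622, plus strand) measured 8.20 and 7.97 log2 CPM at D0, then 2.61 and 3.81 at D6, and finally 2.04 and 1.48 at D13. The 3 days did not overlap. It was 29.3-fold lower at D6 (log2 change -4.87, SE 0.39, limma adjusted p = 8.33e-05) and 80.1-fold lower at D13 (log2 change -6.32, SE 0.39, limma adjusted p = 1.99e-05). Ordered by log2 change from the lowest up, Dnmt3l was the 19th of 12626 genes from D0 to D6 and the 13th from D0 to D13. The transcript was still counted at D13, with 294 and 209 reads against 23138 and 21905 at D0.

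Of the 5 genes, 3 were called lower and 1 higher both from D0 to D6 and from D0 to D13. Over all genes and families, 10.2% were called lower and 13.7% higher from D0 to D6, and 21.5% lower and 20.6% higher from D0 to D13. With a further requirement of more than a 4-fold difference, which the study set for genes and which was applied here to genes and families alike, Dnmt3a, Dnmt3b and Dnmt3l remained called in both comparisons and Uhrf1 did not, and 3.81% (D0 to D6) and 5.9% (D0 to D13) of all features were called lower. The median log2 change of the 5 genes was -2.41 from D0 to D6 and -2.39 from D0 to D13, where that of all features was -0.01 and -0.02. In bulk RNA, fewer cells expressing a gene and less RNA per cell cannot be told apart.

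**Figure D2:**
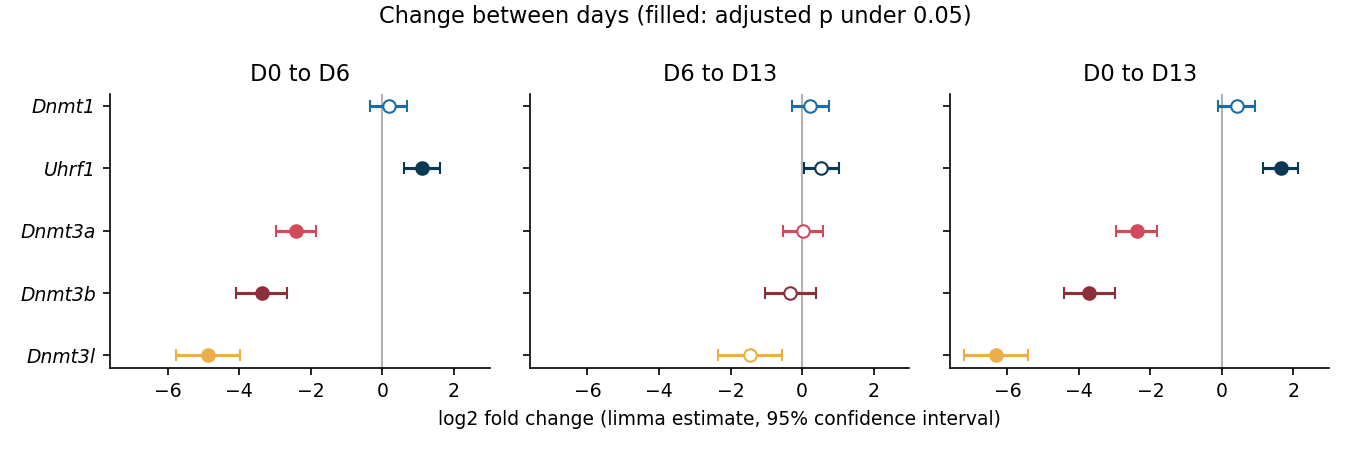
log2 fold change of each gene (x axis) from D0 to D6, D6 to D13 and D0 to D13, as limma estimates with 95% confidence intervals (bars). Filled points have an adjusted p under 0.05: Uhrf1, Dnmt3a, Dnmt3b and Dnmt3l in the comparisons with D0, and no gene from D6 to D13.

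Markers of other cell types also moved over these days. The fibroblast or feeder list, of which 3 of 6 genes had a row, summed to 29.7 and 10.1 CPM at D0 and to between 4.86 and 5.62 CPM later. The primitive endoderm list (3 of 5 with a row) summed to 17.8 and 20.4 CPM at D0 and to between 3.48 and 5.42 CPM later. Within it, Dab2 was lower, from 3.99 and 4.07 log2 CPM at D0 to between -0.75 and 0.02 later, whereas Pdgfra was at 0.35 and 1.28 at D0 and at 1.37 and 1.66 at D13, and Sox17 ranged from -0.61 to 0.31 with the days overlapping. The primed epiblast genes Otx2 and Pou3f1 summed to 113 and 125 CPM at D0 and to between 15.1 and 27.8 CPM later, while the third gene of that list, Fgf5, had no row. The neural list (2 of 3 with a row) summed to 93.7 and 144 CPM at D0 and to between 45.5 and 81.5 later, a sum made up mainly of Nes. Its other gene, Sox1, was higher in every later sample, at 0.94 and 1.06 log2 CPM on D0 and between 2.21 and 3.06 afterwards. The 1 of 4 trophoblast genes with a row ranged from 2.97 to 5.41 CPM, and the mesoderm genes T and Mixl1 had no row. Whether cells of these types were present, and their part in the fall of the de novo genes, was not tested.

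Among the 4 genes that changed, most of the change was in place by D6. Of the log2 change from D0 to D13, the part present at D6 was 101.1% for Dnmt3a, 91.0% for Dnmt3b, 77.1% for Dnmt3l and 67.6% for Uhrf1. From D6 to D13, 0 of the 5 genes were called by limma, and 2 had an unadjusted p under 0.05; over all features 2.78% were called lower and 1.39% higher. These 2 were Dnmt3l, with a log2 change of -1.45 (SE 0.39, limma adjusted p = 0.0693), and Uhrf1, with 0.53 (SE 0.22, limma adjusted p = 0.171). The Dnmt3l value depended on the D6 sample: the log2 change was -2.05 without D6 replicate 1 (limma adjusted p = 0.0429) and -0.85 without D6 replicate 2 (adjusted p = 0.541). Dnmt3a (0.03, adjusted p = 0.959), Dnmt3b (-0.33, adjusted p = 0.55) and Dnmt1 (0.22, adjusted p = 0.584) had intervals that included 0.

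The bend at D6 was tested as the distance of D6 from the midpoint of D0 and D13 on the log2 scale. D6 lay below the midpoint by a log2 value of -1.22 for Dnmt3a (SE 0.22, limma adjusted p = 0.012), -1.52 for Dnmt3b (SE 0.27, adjusted p = 0.0124) and -1.71 for Dnmt3l (SE 0.34, adjusted p = 0.0175); 3.26% of all features were called below their midpoint. For Uhrf1 (0.29, limma adjusted p = 0.443) and Dnmt1 (-0.02, adjusted p = 0.977) the distance did not pass the test. The calls were lost without D6 replicate 1, which leaves 1 sample at D6. The distances were then -1.06 for Dnmt3a (SE 0.35, limma adjusted p = 0.163), -1.10 for Dnmt3b (SE 0.35, adjusted p = 0.15) and -1.11 for Dnmt3l (SE 0.39, adjusted p = 0.191). The Dnmt3l call was also lost without D0 replicate 1 (adjusted p = 0.0526) or D13 replicate 1 (adjusted p = 0.0628).

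**Figure D3:**
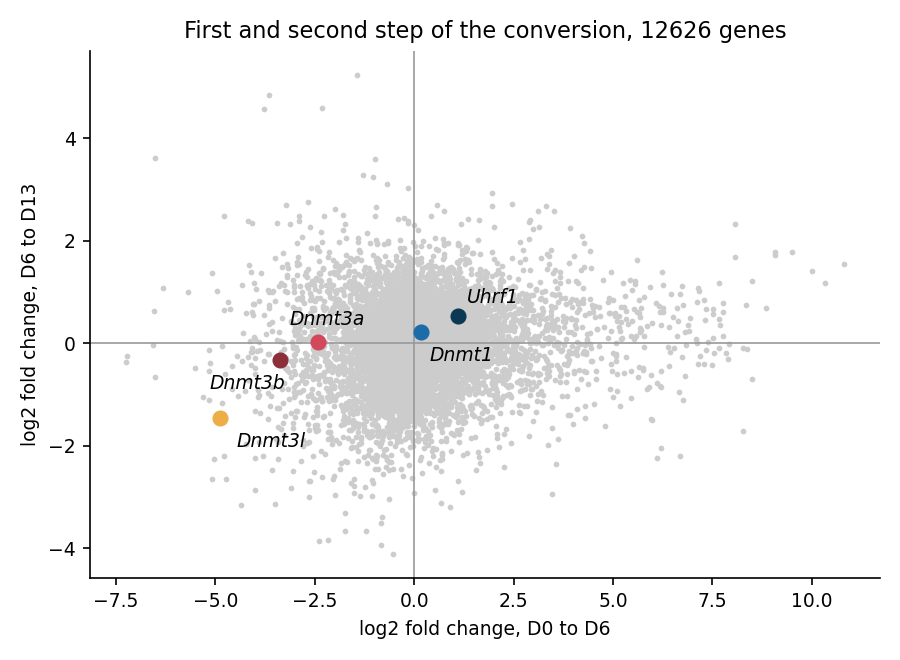
log2 fold change over the first step, D0 to D6 (x axis), against the second step, D6 to D13 (y axis), for 12626 genes in grey, with the 5 genes coloured; the axes share the D6 samples. Dnmt3a and Dnmt3b lie far left near the horizontal line, Dnmt3l lies left and below it, and Uhrf1 and Dnmt1 lie right and above.

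Compared per length, as CPM per kb of annotated exon, the order of the 5 genes changed with the medium. At D0, Dnmt3b was the highest with 188 ± 25.3 (SD, n = 2), followed by Uhrf1 with 105 ± 7.27, Dnmt3l with 102 ± 11.3, Dnmt1 with 66.4 ± 10.2 and Dnmt3a with 25.8 ± 3.94. Uhrf1 and Dnmt3l did not differ beyond their spread, and changed places when the longest transcript was taken as the length. At D6, Uhrf1 led with 227 ± 6.72, then Dnmt1 with 75.1 ± 3.85, Dnmt3b with 18.9 ± 7.56, Dnmt3a with 4.84 ± 0.768 and Dnmt3l with 3.77 ± 2.09, the last pair again within their spread. At D13, the same order held, from 329 ± 4.43 for Uhrf1 and 88.0 ± 12.2 for Dnmt1 through 14.6 ± 3.88 for Dnmt3b and 4.97 ± 1.16 for Dnmt3a to 1.29 ± 0.352 for Dnmt3l.

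Ratios within a sample do not depend on its scaling. The de novo enzymes Dnmt3a and Dnmt3b together stood to Dnmt1, per length, at 3.96 and 2.62 at D0, then 0.247 and 0.381 at D6, and finally 0.202 and 0.240 at D13. Serum cells thus held more de novo than maintenance transcript, and 2i+vitC cells less, in every sample. The cofactors moved in opposite directions relative to their enzymes. Uhrf1 stood to Dnmt1 at 1.87 and 1.36 at D0, then 3.08 and 2.98 at D6, and finally 4.18 and 3.37 at D13. Dnmt3l stood to the sum of Dnmt3a and Dnmt3b at 0.469 and 0.487 at D0, then 0.129 and 0.177 at D6, and finally 0.0962 and 0.0451 at D13. Within the de novo pair, Dnmt3b exceeded Dnmt3a by 7.22 and 7.41 times at D0, then 3.15 and 4.50 times at D6, and finally 2.87 and 3.00 times at D13.

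**Figure D4:**
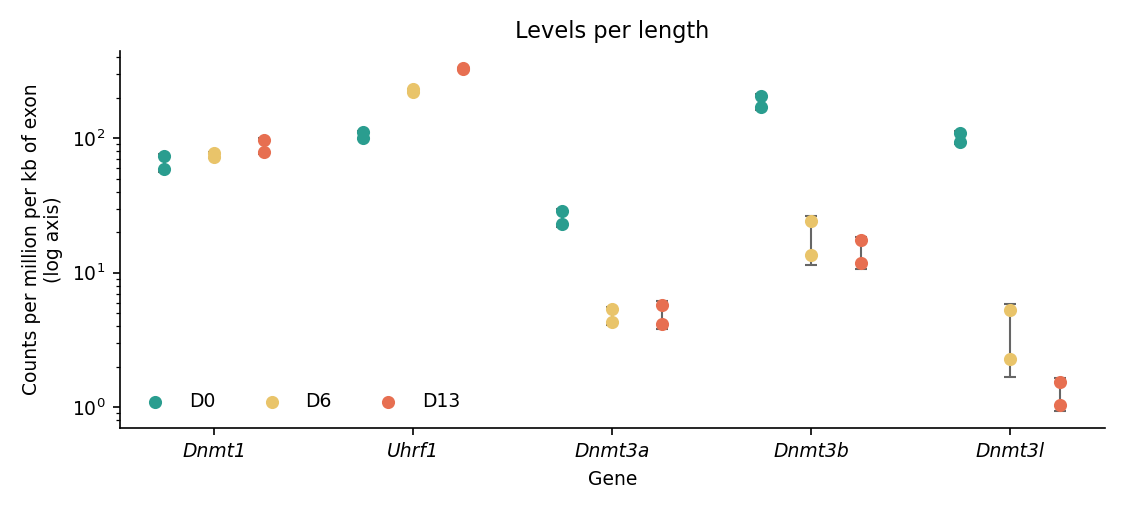
Level per length, in CPM per kb of exon on a log axis, of each gene at D0, D6 and D13. Points are samples and bars the mean ± SD (n = 2); Dnmt3b is the highest at D0, and Uhrf1 and Dnmt1 are the highest at D6 and D13.

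Gene-level values have limits for this family. Isoforms from separate start sites, such as the short Dnmt3a2 form known from ES cells, cannot be told apart. Dnmt3c, a tandem duplicate next to Dnmt3b, had no row under that name, and how the authors' counting treated reads shared with it is not given in the sources used here. The antisense genes Dnmt3aos and Dnmt3bos, Aire on the strand opposite Dnmt3l, and Mir7081 within Dnmt1 overlap members in the annotation and had no row either; the strand setting of the counting is not given in the sources used here.

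Among the partners of maintenance, called genes lay on both sides of 0 at D13. Of 12 listed genes, 0 were called higher and 2 lower from D0 to D6, 0 either way from D6 to D13, and 2 higher and 2 lower from D0 to D13, with a median log2 change of -0.17 over the whole course (-0.02 for all features). The shares called over D0 to D13 were near the 20.6% higher and 21.5% lower of all features. From D0 to D6, 13.7% of all features were called higher and 10.2% lower, and from D6 to D13 1.39% and 2.78%. At an unadjusted limma p under 0.05, 2 were higher and 2 lower from D0 to D6, and 1 was higher from D6 to D13. Dppa3, which is known to keep Uhrf1 away from chromatin, measured 4.80 and 6.15 log2 CPM at D0, then 7.16 and 6.41 at D6, and finally 8.65 and 8.18 at D13. It rose by 7.66-fold from D0 to D13 (limma adjusted p = 0.000987), while its log2 change of 1.31 to D6 did not pass the test (adjusted p = 0.0592). Uhrf2, the paralog of Uhrf1, went the other way, with log2 changes of -0.90 to D6 (adjusted p = 0.0214) and -0.71 to D13 (adjusted p = 0.0352). Setd7, a lysine methyltransferase that acts on Dnmt1 protein, fell by 2.81 on the log2 scale to D6 (limma adjusted p = 0.000751). Lig1, the ligase of replicated DNA, rose by 0.76 to D13 (adjusted p = 0.0187). Usp7, the deubiquitinase bound to Dnmt1, had -0.26 (adjusted p = 0.355) and Hells, a chromatin remodeller needed for methylation, -0.44 (adjusted p = 0.316) from D0 to D13.

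Of the 9 regulators of de novo methylation with a row, 2 were called higher and 1 lower from D0 to D6, 0 either way from D6 to D13, and 1 higher and 3 lower from D0 to D13; 1 was lower at an unadjusted limma p under 0.05 from D6 to D13. Of all features, 13.7% were called higher and 10.2% lower from D0 to D6, and 20.6% and 21.5% from D0 to D13. Over the second step the shares were 1.39% higher and 2.78% lower, so low that 0 calls among 9 genes cannot show stability. The list median over the whole course was -0.26. Prdm14, a known repressor of the Dnmt3 genes in ES cells, measured 2.86 and 3.46 log2 CPM at D0, then 5.91 and 5.93 at D6, and finally 5.55 and 5.63 at D13. It was 6.79-fold higher at D6 (limma adjusted p = 0.00016) and 5.39-fold higher at D13 (adjusted p = 0.000195), with no overlap between D0 and the later days. Zfp57, the zinc finger protein that guards methylation at imprinted loci, was higher at D6 (log2 change 0.92, adjusted p = 0.0104). Its log2 change from D0 to D13 was 0.07 (limma adjusted p = 0.791). The H3K9 methyltransferase gene Ehmt1 fell by 0.93 on the log2 scale to D6 (adjusted p = 0.0176) and by 1.16 to D13 (adjusted p = 0.00403), and the H3K36 methyltransferase gene Nsd1 by 0.98 to D13 (adjusted p = 0.0297).

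Among the genes that oxidise methylcytosine, Tet1, Tet2 and Tet3 had a row and Tdg, the glycosylase that excises the products, did not. Over either step, D0 to D6 or D6 to D13, 0 of 3 were called by limma. At an unadjusted p under 0.05, 1 and 3 of them were lower, a threshold at which all features were not counted. Of all features, 10.2% were called lower, at the adjusted threshold, over the first of these steps and 2.78% over the second. From D0 to D13, 3 of 3 were called lower, where 21.5% of all features were. The log2 changes from D0 to D13 were -1.41 for Tet1 (limma adjusted p = 0.0122), -1.09 for Tet2 (adjusted p = 0.0386) and -1.92 for Tet3 (adjusted p = 0.00242). Tet2 ran from 5.84 and 6.94 log2 CPM at D0 to 6.70 and 6.95 at D6 and 5.02 and 5.58 at D13, so that its D0 and D6 values overlapped. Unlike the de novo genes, the Tet genes did not pass the test at D6, and a difference between the groups in timing was not tested.

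The methyl donor cycle supplies S-adenosylmethionine. Of 17 genes with a row, 3 were called higher and 2 lower from D0 to D6, 1 higher and 2 lower from D6 to D13, and 4 higher and 5 lower from D0 to D13. Of all features, 13.7% were called higher and 10.2% lower from D0 to D6, and 1.39% and 2.78% from D6 to D13. The counts from D0 to D13 were near those of all features, of which 20.6% were called higher and 21.5% lower. The list median from D0 to D13 was 0.49. Mat2a, the enzyme that makes S-adenosylmethionine in these cells, fell by 3.35 on the log2 scale to D13 (limma adjusted p = 0.000239), from 9.58 and 10.84 log2 CPM to 6.70 and 7.02. Adk, the adenosine kinase that clears a by-product of the cycle, fell by 2.18 to D6 (adjusted p = 0.0018). Bhmt and Bhmt2, which remethylate homocysteine, were near the detection level at D0, with 5 and 6 reads and with 41 and 6 reads. At D6 they had 2261 and 1480 reads and 1330 and 949 reads (limma adjusted p = 8.09e-06 and 0.000667). From D6 to D13, Mat2b, the regulatory partner of Mat2a, fell by 0.97 (limma adjusted p = 0.0465), and Ahcyl2 rose by 1.12 (adjusted p = 0.0413).

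Of 9 genes on a list of readers of methylated CpG sites and their relatives, Zbtb33 was the single gene called. Of all features, 10.2% were called lower from D0 to D6 and 21.5% from D0 to D13. Over the second step, where 0 of the 9 genes were called, the shares of all features were only 1.39% higher and 2.78% lower. Zbtb33 was lower by 1.20 on the log2 scale at D6 (limma adjusted p = 0.0319) and by 1.32 at D13 (adjusted p = 0.0135). At an unadjusted p under 0.05, 0 of the 9 genes were higher in any comparison, and 1 was lower from D0 to D6, 2 over the second step and 3 over the whole course. Trdmt1, also named Dnmt2, resembles the family in sequence but methylates tRNA. Its log2 change was 0.02 to D6 and 0.04 to D13, with an interval of -0.59 to 0.68 at D13 (limma adjusted p = 0.913).

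Uhrf1 and Dnmt1 are known to be expressed with S phase, so 24 S phase and proliferation genes were counted beside them. From D0 to D6, 0 were called higher and 1 lower, Mki67, with a log2 change of -0.93 (limma adjusted p = 0.0487). Of all features, 13.7% were called higher and 10.2% lower over this step. Of the 24 genes, 15 had a positive and 9 a negative log2 change. At an unadjusted p under 0.05, 4 were higher and 2 lower over this step. From D6 to D13, 0 were called either way by limma, where 1.39% of all features were called higher and 2.78% lower. At an unadjusted p under 0.05, 2 were higher from D6 to D13. From D0 to D13, 4 were called higher and 3 lower, among them E2f1 (0.97, adjusted p = 0.0189), Ccne1 (-1.31, adjusted p = 0.0435) and Mki67 (-0.91, adjusted p = 0.0347), with a list median of 0.22. Of all features, 20.6% were called higher and 21.5% lower in that comparison. The part of the cell cycle in the rise of Uhrf1 was not tested.

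**Figure D5:**
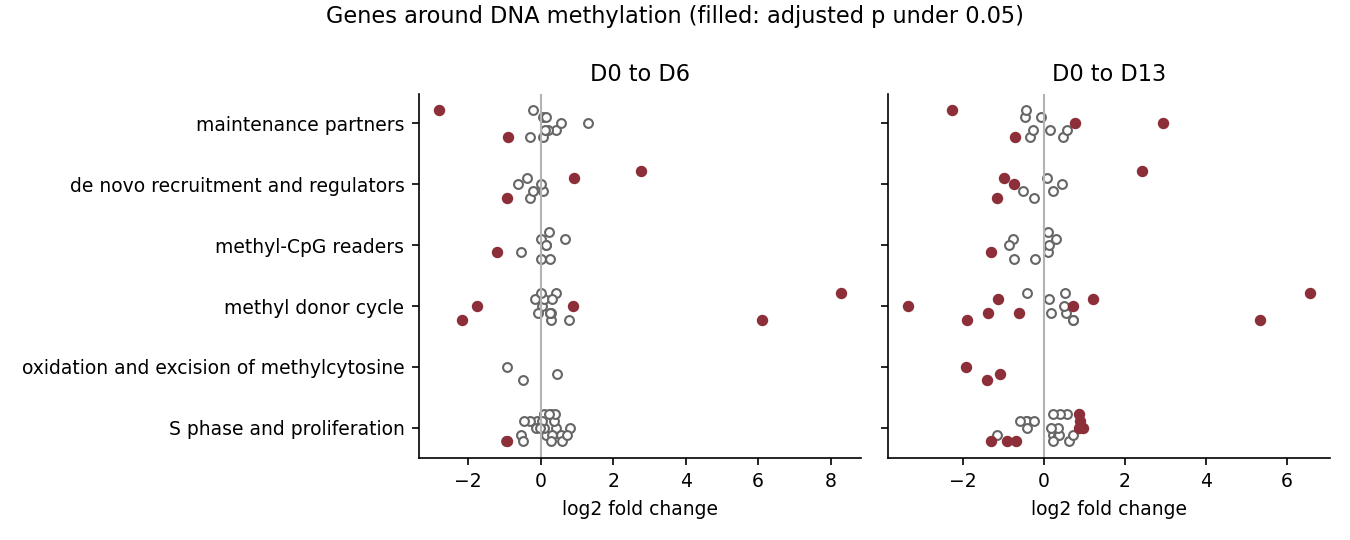
log2 fold change (x axis) of each gene of the listed groups from D0 to D6 and from D0 to D13; each point is a gene, spread vertically for legibility, and filled points have an adjusted p under 0.05. At D13, called genes lie on both sides of 0 in the maintenance, de novo regulator, methyl donor and S phase groups, and the 3 Tet genes are filled at D13.

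The genes whose course was most like each member were found by the distance between log2 values centred on the gene mean over 6 samples, among 10218 genes. They were Csnk1a1, Spidr and Nfya for Dnmt1, Rnf181, Phka1 and Ikbip for Uhrf1, and Fam184a, Lacc1 and Fzd3 for Dnmt3a. For Dnmt3b they were Ddr1, Fkbp10 and Lrrn4, and for Dnmt3l Sema6a, Myc and Slc39a14. The nearest gene lay at 0.993 for Dnmt3l and at 0.09 for Dnmt1, with Pearson's r of 0.989 and 0.986. The distance is not scaled to the size of a gene's change, so the members cannot be compared by it. With Pearson's r as the measure, 1 of the 3 genes was shared for Uhrf1 and 0 for each of the others.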

How the data were processed

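RNA-seq of 6 samples of J1 ES cells was used, 2 replicates each at D0, D6 and D13. The authors mapped reads on mm10 with TopHat 2.0.6, counted RefSeq genes with HTSeq 0.6.1 and transposon families after mapping with Bowtie 1.0.0, applied TMM scaling and deposited voom log2 CPM. Whole reads were recovered from the values, since 100.0% of them matched a whole number plus 0.5 within a tolerance of 0.001 reads.

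The deposited log2 values were fitted with limma 3.58.1 (R 4.3.3), with a mean per day, a mean-variance trend and no block, on all 6 samples, and tested on simulated data. Benjamini-Hochberg adjustment was made over 12928 features. Members and lists were chosen with earlier results of these data known. Named genes are the members, up to 3 called genes of the largest change per list and comparison, further genes set by name (Dppa3, Uhrf2, Usp7, Prdm14, Hells, Tet1, Tet2, Tet3, Tdg and Trdmt1), and the 3 genes most like each member among those with a mean of at least 1 log2 CPM. A gene that this rule would name is not reported here. The capital G is missing from all gene names; 44 names on several rows and 464 starting in lower case were not named. Lengths are from GENCODE on GRCm38. Python 3.11.15 (pandas 2.3.3, numpy 2.4.6, matplotlib 3.10.9) was used for tables and figures. Alternatives were other filters, fits, weights, scaling, thresholds, lengths, a replicate block and each sample left out. An SD rests on 2 values, and the number of replicates is what limits the precision.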

Additional observations from a re-analysis of the deposited data

How the results depend on the processing

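Of 255 repeats of the tests on the 5 genes under 13 alternative settings, 240 kept their direction and side of the threshold, 7 lost a call, 2 gained one and 6 turned direction without a call in either fit. Some of these repeats could differ little or not at all. The filter of at least 10 reads in 2 or more samples left every value of the 5 genes as it was. Leaving out a sample of a day outside the comparison left the log2 change as it was. The r of replicate differences over genes was -0.13 for D0 with D6, 0.329 for D6 with D13, and 0.137 for D0 with D13. With 2 replicates a day, these values cannot settle whether the replicate numbers paired the samples. The main fit has no block, and results with the replicate block are given here only. With the block, the Dnmt3l log2 change from D6 to D13 of -1.45 passed the test (limma adjusted p = 0.0314), giving 1 of 5 genes called, and all features called from D6 to D13 rose from 540 to 1251. With the block, calls from D6 to D13 were 1 for maintenance partners, 1 for de novo regulators, 6 for the methyl donor cycle and 1 for the Tet genes. From D0 to D6 they were 1 for the Tet genes, 2 for S phase and 3 for maintenance partners (1 higher and 2 lower), and from D0 to D13 9 for S phase (5 higher and 4 lower). The block raised the calls over all 12928 features too, from 3090 to 3530 for D0 to D6. For D0 to D13 they rose from 5441 to 5978. The block changed no other call of the 5 genes.

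All features called numbered 3090, 540 and 5441 from D0 to D6, D6 to D13 and D0 to D13. They were 1707, 4 and 3228 at an adjusted p under 0.01, and 1261, 142 and 1718 with a 4-fold minimum. With each sample left out in turn, they ranged from 1602 to 3570, from 0 to 1357 and from 4028 to 5892. The lowest count from D6 to D13 was without D13 replicate 1 and the highest without D13 replicate 2; it was 64 without D6 replicate 1 and 21 without D6 replicate 2. A left-out sample leaves its day with 1 sample, assumed to vary like the other days. Over these fits, members called ranged from 3 to 4, from 0 to 1, and stayed at 4 for D0 to D13. The Uhrf1 log2 change from D0 to D6 ranged from 1.04 to 1.18, with calls lost at 1.14 and 1.08. From D6 to D13, Dnmt3a ranged from -0.21 to 0.27 (turned at -0.14 and -0.21), Dnmt3b from -0.75 to 0.0859 and Dnmt3l from -2.05 to -0.85. The distance of D6 from the midpoint ranged from -0.10 to 0.06 for Dnmt1 (turned at 0.059, 0.033 and 0.051), from -1.38 to -1.06 for Dnmt3a, from -1.94 to -1.10 for Dnmt3b and from -2.31 to -1.11 for Dnmt3l (calls lost at -1.66, -1.11 and -1.57). The cause of these changes was not tested.

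With the longest transcript as the length, levels per kb moved to 80.6 for Dnmt1 at D6, 149 and 1.90 for Dnmt3l at D0 and D13, and 336 for Uhrf1 at D13. Dnmt3l then ranked 2 and Uhrf1 3 at D0, and Dnmt3l 4 and Dnmt3a 5 at D6.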
